A study of Rattus norvegicus with 6 samples.

Results

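Ribosomal protein genes were compared between stenosed and sham pulmonary veins (PVs) of young rats. A gene was included when its deposited symbol began with Rpl or Rps followed directly by a digit, or was Rplp0, Rplp1, Rplp2 or Rpsa, and when it had a value above 0 in at least 1 library. Symbols beginning with Rps6k, which belong to kinases, were left out. The rule gave 99 of the 17833 genes in the table, and no measured difference between the groups entered it. Both groups were wild type SD (Sprague-Dawley) rats operated on at postnatal day 1, with 3 libraries each. In the bilateral pulmonary vein banding (BPVB) group the PVs were constricted, whereas in the sham group the chest was opened and closed without constriction. PV tissue of the right upper lung lobe was frozen at postnatal day 21 and total RNA was sequenced in bulk. By the study's methods 3 numbered rats of each group were drawn at random for RNA sequencing, and each library was taken as 1 rat. The p-values measure the spread between these libraries.

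The ribosome joins amino acids into proteins in the cytosol. Its large (60S) subunit holds the site where the peptide bond is made, and its small (40S) subunit holds the messenger RNA and the decoding site. Each subunit is a core of ribosomal RNA covered by proteins, nearly all of them made from 1 gene each, and the proteins are made in step with one another because the finished ribosome needs about equal numbers of them. Messenger RNAs of ribosomal proteins are among the most abundant in growing cells, and cells raise or lower their translation together through the mTOR pathway.

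The rule used symbols only, so the members were checked against the reference names. Of the 99 members, 75 carried in RefSeq the name of a protein of the large or small subunit, 7 were paralogs (second genes for a similar protein, such as Rpl3l and Rps27l), and 17 were copies of subunit genes or other genes. Rps19bp1 is named as a protein that binds Rps19 and is not a ribosomal protein. The deposited symbol differed from the RefSeq symbol for 9 members. Rps9, Rps19 and Rpl35a were deposited as Rps9l1, Rps19l2 and Rpl35al1, and these 3 genes are called here by their RefSeq names. The row deposited as Rpl37 was a copy that RefSeq calls Rpl37l1, and the subunit gene Rpl37 was deposited as LOC120093056, outside the rule. A Gene Ontology term for the cytosolic ribosome or for a structural constituent of the ribosome stood beside 87 members in the deposited table.

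The values were FPKM, in which fragments are divided by gene length and by the library total. The 75 subunit genes had a mean of 205 to 2522 FPKM, so all were highly expressed. BPVB libraries held 26078189 to 29725808 fragments and sham libraries 23439506 to 23821184, so every BPVB library was deeper than every sham library. Together the members took 4.11% to 4.24% of the fragments in the BPVB group and 3.79% to 3.84% in the sham group. The 3 members with a mean FPKM under 0.1 (Rpl22l2, Rpl30l1 and Rpl31l1) were not tested, which left 96.

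Ribosomal protein genes were slightly but broadly higher in the BPVB group. The summed FPKM of the members was 60232, 62503 and 62349 across BPVB libraries and 55663, 55905 and 56524 across sham libraries. The lowest BPVB library was above the highest sham library. The summed FPKM was 1.10-fold higher in the BPVB group, a log2 ratio of 0.14 (two-sided exact permutation test, p = 0.1, the lowest value that 3 libraries against 3 allow). As a share of the FPKM of all genes, the members made up 12.7%, 13.0% and 12.9% across BPVB libraries and 11.4%, 11.5% and 11.5% across sham libraries.

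**Figure D1:**
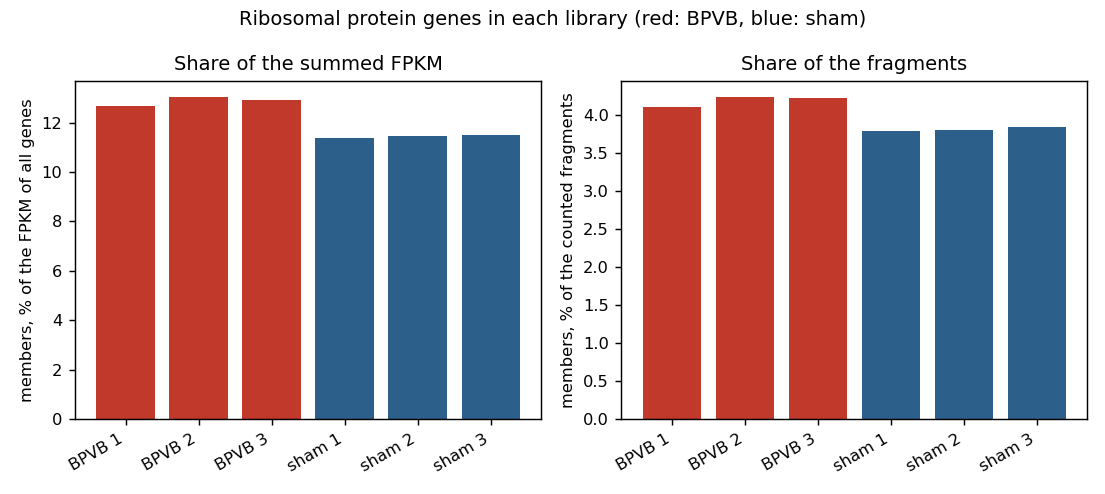
Share of the 99 ribosomal protein genes in the summed FPKM of all genes (left panel, percent) and in the counted fragments (right panel, percent) of each library. Bars are single libraries, red for BPVB and blue for sham; all 3 BPVB bars are higher than all 3 sham bars in both panels, with FPKM shares of 12.7% to 13.0% against 11.4% to 11.5%.

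Gene by gene, 59 of the 96 tested members were higher in the BPVB group and 3 were lower (limma on log2(FPKM + 0.5), adjusted p under 0.05). Among all 15150 genes tested, 17.2% were called higher and 14.3% lower. The median log2 fold change of the members was 0.13, against 0.02 for all genes. The 3 BPVB values lay above the 3 sham values in 64 members, where 25.2% of all genes showed such a separation. In either direction the groups did not overlap in 66 members and in 45.6% of all genes. The called changes ran from -0.51 to 0.54 on the log2 scale, and no member passed the thresholds for a differentially expressed gene (DEG, which asks for an adjusted p under 0.05 together with a log2 fold change beyond 1 in either direction), which 3.27% of all genes passed. An unadjusted p under 0.05 was found for 70 of the 96 tested members and for 42% of all genes.

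Among the 75 subunit genes alone, 57 were higher and 1 was lower, and the median log2 fold change was 0.14. A positive log2 fold change was found in 72 of them, and 68 lay above the median of all genes tested. The SD of the log2 fold changes over these 75 genes was 0.13, and the median standard error (SE) of a single gene was 0.03. The 25 genes of lowest mean FPKM had a median log2 fold change of 0.15 with 19 called higher, the middle 25 had 0.16 with 20 called higher, and the highest 25 had 0.11 with 18 called higher. A rise was therefore found at every level of expression. By library, the median deviation of the 75 genes from the sham mean on the log2 scale was 0.11, 0.15 and 0.15 in the BPVB group and between -0.01 and 0.01 in the sham group. BPVB replicate 1 gave the lowest value of its group for 49 of the 75 genes. Without this replicate 62 members were called higher and 2 lower, where 14.6% and 12.6% of all genes were.

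**Figure D2:**
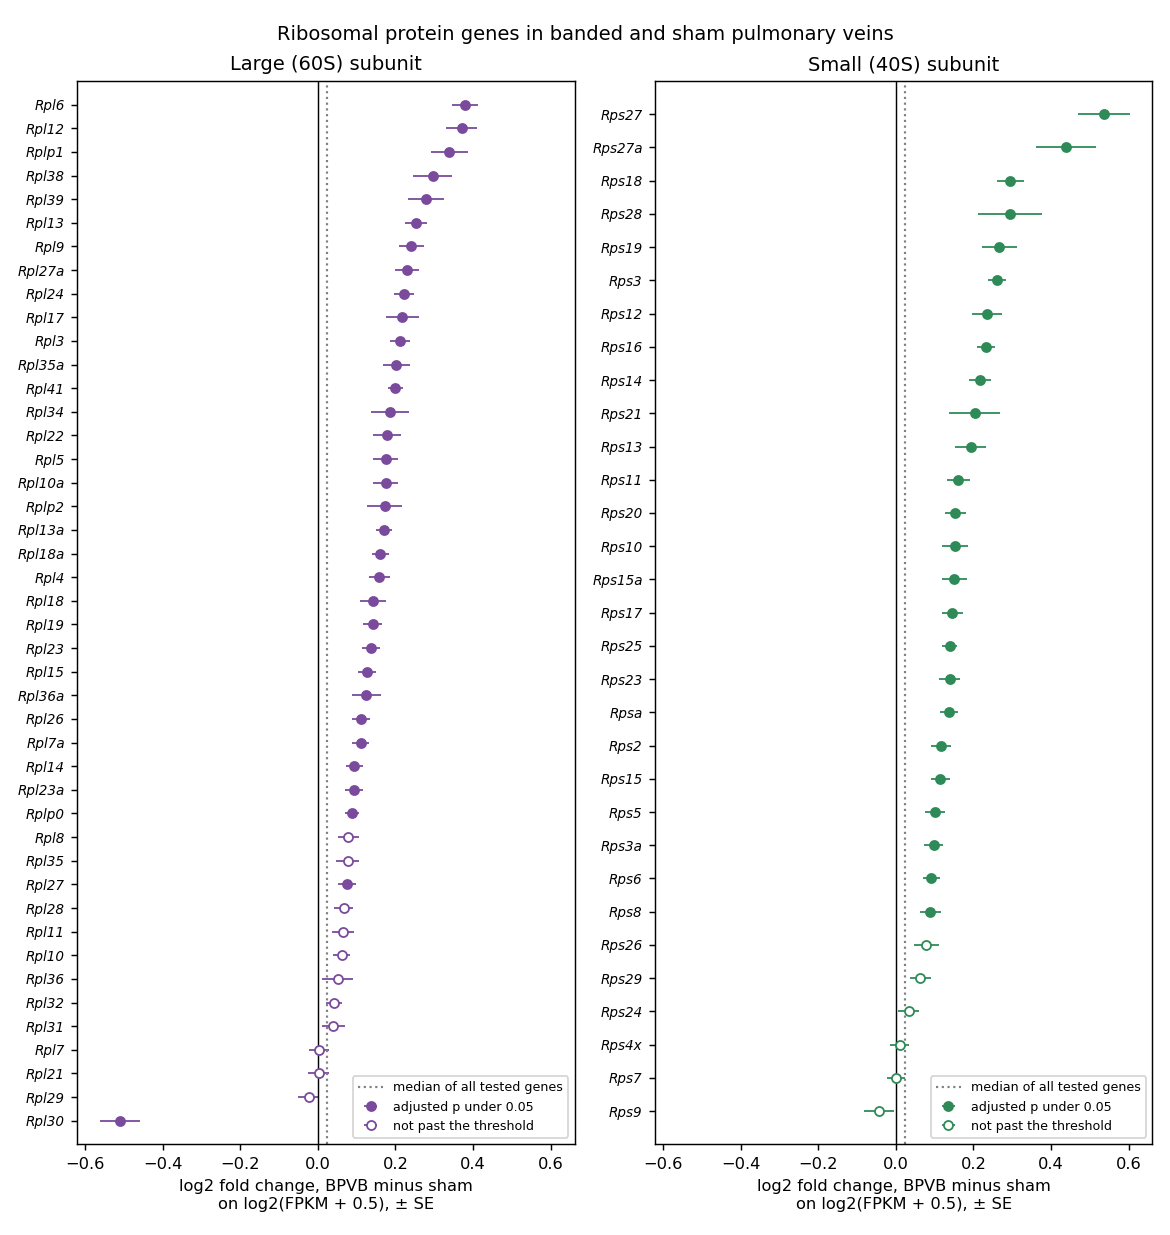
Log2 fold change (BPVB minus sham, on log2(FPKM + 0.5)) of the 75 subunit genes, ordered by size within the large and the small subunit. Points are fitted values with bars of ± 1 SE from 3 libraries a group, filled where the adjusted p was under 0.05; nearly all points lie right of 0, Rps27 at 0.54 and Rpl30 at -0.51 lie farthest out, and the dotted line marks the median of all tested genes at 0.02.

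Both subunits were then counted by deposited symbol, which takes in the copy deposited as Rpl37 and leaves out Rpl35a, Rps9 and Rps19. Of the 44 large subunit genes, 31 were higher and 1 was lower, and their median was 0.14 on the log2 scale. Of the 29 small subunit genes, 24 were higher and none was lower, with a median of 0.15. The per-library difference between the median log2 FPKM of the large and the small subunit genes was -0.40, -0.41 and -0.37 across BPVB libraries and -0.39, -0.38 and -0.41 across sham libraries. The groups overlapped and their means differed by 0.00045 on the log2 scale (exact permutation test, two-sided, p = 1).

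In the large subunit, the largest fold changes among the called rises were those of Rpl6, Rpl12 and Rplp1. Rpl6, a structural protein of the 60S subunit, was at 462, 435 and 464 FPKM across BPVB libraries and 359, 341 and 345 FPKM across sham libraries. Its groups were far apart, with a log2 fold change of 0.38 ± 0.03 (SE, adjusted p = 4.1e-05). The P stalk is a flexible arm of the 60S subunit that recruits elongation factors. Rpl12, which lies at its base, was at 268, 295 and 295 FPKM in the BPVB group and 219, 220 and 225 FPKM in the sham group, a log2 fold change of 0.37 ± 0.04 (adjusted p = 0.00014). Rplp1, an acidic stalk protein, was at 1103, 1254 and 1256 FPKM against 939, 979 and 934 FPKM, and its log2 fold change was 0.34 ± 0.05 (adjusted p = 0.00076). The other stalk proteins had log2 fold changes of 0.17 ± 0.05 for Rplp2 (adjusted p = 0.019) and 0.09 ± 0.02 for Rplp0 (adjusted p = 0.0069). The call of Rplp2 was lost without BPVB replicate 3, sham replicate 1 or sham replicate 3, with adjusted p-values of 0.067, 0.065 and 0.067.

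Rpl41, a very short basic protein at the subunit interface, had the highest FPKM of all members. It was at 2666, 2721 and 2700 FPKM across BPVB libraries and 2310, 2376 and 2357 FPKM across sham libraries, with a log2 fold change of 0.20 ± 0.02 (adjusted p = 9.0e-05). Rpl3, which helps to shape the peptidyl transferase centre, rose by 0.21 ± 0.03 on the log2 scale (adjusted p = 0.00034), from 624 ± 15.3 to 722 ± 14.2 FPKM (SD, n = 3 per group). Rpl13a, known also for silencing inflammatory messenger RNAs when released from the ribosome, rose by 0.17 ± 0.02 (adjusted p = 0.00031). Rpl5 and Rpl11 enter the subunit together with the 5S ribosomal RNA, and both bind Mdm2 when ribosome assembly fails. Rpl5 rose by 0.17 ± 0.03 (adjusted p = 0.0039), whereas Rpl11 had a log2 fold change of 0.06 ± 0.03 and did not pass the threshold (adjusted p = 0.13). Rpl11 passed with TPM (0.10, adjusted p = 0.025), with quantile scaling (0.14, adjusted p = 0.0049) and with limma-voom on recovered fragments (0.07, adjusted p = 0.049). The difference between the 2 genes was not tested.

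Some of the most abundant large subunit genes moved little. Rpl26 rose by 0.11 ± 0.02 (adjusted p = 0.0051) and Rpl23a, which lies at the exit of the peptide tunnel, by 0.09 ± 0.02 (adjusted p = 0.017). The Rpl23a call was lost without BPVB replicate 2, sham replicate 2 or sham replicate 3, where the adjusted p was 0.056, 0.063 and 0.066. Rpl10, which joins late in subunit assembly, had a log2 fold change of 0.06 ± 0.02 with groups that did not overlap (adjusted p = 0.06). It passed with TPM (0.09, adjusted p = 0.012), quantile scaling (0.15, adjusted p = 0.0017), limma-voom (adjusted p = 0.0069), robust eBayes (adjusted p = 0.04), a filter at a mean FPKM of 1 (adjusted p = 0.047), and without BPVB replicate 3 (adjusted p = 0.0499). Rpl31 had a log2 fold change of 0.04 ± 0.03 (adjusted p = 0.36), which was 0.07 without BPVB replicate 1 (adjusted p = 0.036) and 0.16 with quantile scaling (adjusted p = 0.00044). Rpl7 was at 1208, 1286 and 1257 FPKM across BPVB libraries and 1228, 1256 and 1259 FPKM across sham libraries, and its groups overlapped fully, with a log2 fold change of 0.003 ± 0.03 (adjusted p = 0.95). With quantile scaling its value was 0.14 (adjusted p = 0.0013), and with median-of-ratios scaling -0.02.

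In the small subunit, Rps27 rose most. This zinc-binding protein of the 40S subunit was at 1019, 1176 and 1259 FPKM across BPVB libraries and 756, 809 and 809 FPKM across sham libraries. Every BPVB library was well above every sham library, with a log2 fold change of 0.54 ± 0.07 (adjusted p = 0.00037). Rps27a, which is made as a fusion with ubiquitin, was at 483, 556 and 519 FPKM against 400, 337 and 415 FPKM. Its groups were also separate, with a log2 fold change of 0.44 ± 0.08 (adjusted p = 0.0026). Rps19, in which mutations cause Diamond-Blackfan anaemia, was at 638, 711 and 719 FPKM against 550, 578 and 588 FPKM, a log2 fold change of 0.27 ± 0.05 (adjusted p = 0.0023).

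Rpsa, also known as a laminin receptor, rose by 0.14 ± 0.02 (adjusted p = 0.0022), from 961 ± 5.64 to 1057 ± 26.7 FPKM (SD, n = 3 per group). Rps6, whose phosphorylation by S6 kinase is a common readout of mTOR activity, rose by 0.09 ± 0.02 (adjusted p = 0.013), and Rps3a rose by 0.10 ± 0.02 (adjusted p = 0.013). Both calls lay near the threshold. Without sham replicate 3 the adjusted p was 0.052 for Rps6 and 0.052 for Rps3a, and without sham replicate 2 it was 0.053 for Rps3a. With median-of-ratios scaling Rps6, Rpl23a and Rplp0 did not pass either (adjusted p = 0.081, 0.067 and 0.0501), nor did Rps6 with quantile scaling (adjusted p = 0.051). Rps29, second in FPKM among the members, was at 2282, 2399 and 2394 FPKM in the BPVB group and 2279, 2194 and 2300 FPKM in the sham group. Its groups overlapped, with a log2 fold change of 0.06 ± 0.03 (adjusted p = 0.11). The change passed without BPVB replicate 1 (0.09, adjusted p = 0.031), with TPM (0.09, adjusted p = 0.014), with limma-voom (0.06, adjusted p = 0.017) and with quantile scaling (0.21, adjusted p = 6.3e-05). Rps7 was at 1149 ± 23.2 and 1149 ± 21.0 FPKM (SD, n = 3 per group), a log2 fold change of 0.001 (adjusted p = 0.99), which was 0.08 with quantile scaling (adjusted p = 0.02) and -0.03 with median-of-ratios scaling.

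Rpl30 was the only subunit gene called lower. This 60S protein, which also takes part in reading selenocysteine codons, was at 504, 558 and 585 FPKM across BPVB libraries and 779, 752 and 812 FPKM across sham libraries. The groups were far apart, with a log2 fold change of -0.51 ± 0.05 (SE, adjusted p = 0.00011). A copy of this gene outside the symbol rule moved the other way. LOC100362027, which RefSeq names Rpl30l2 and classes as protein coding, was at 516, 525 and 529 FPKM in the BPVB group and 225, 225 and 223 FPKM in the sham group, a log2 fold change of 1.22 ± 0.02 (adjusted p = 3.0e-09). This copy was looked up after the values of Rpl30 had been seen.

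In fragments, Rpl30 had 6244, 6754 and 8075 across BPVB libraries and 8595, 8184 and 8974 across sham libraries. The copy had 6742, 6705 and 7710 fragments against 2621, 2587 and 2608. When the fragments of Rpl30 were summed with those of its 2 copies in the table, the sum was 487, 516 and 531 CPM (fragments scaled to the library total) across BPVB libraries and 472, 460 and 486 CPM across sham libraries. The summed value rose by 0.11 ± 0.03 on the log2 scale (adjusted p = 0.035), so the direction for Rpl30 depended on whether the copies were included. Reads from near-identical copies can be assigned to either row, and how the authors treated reads with several matches is not given in the sources used here. Whether the assignment of reads moved between the rows was not tested.

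**Figure D3:**
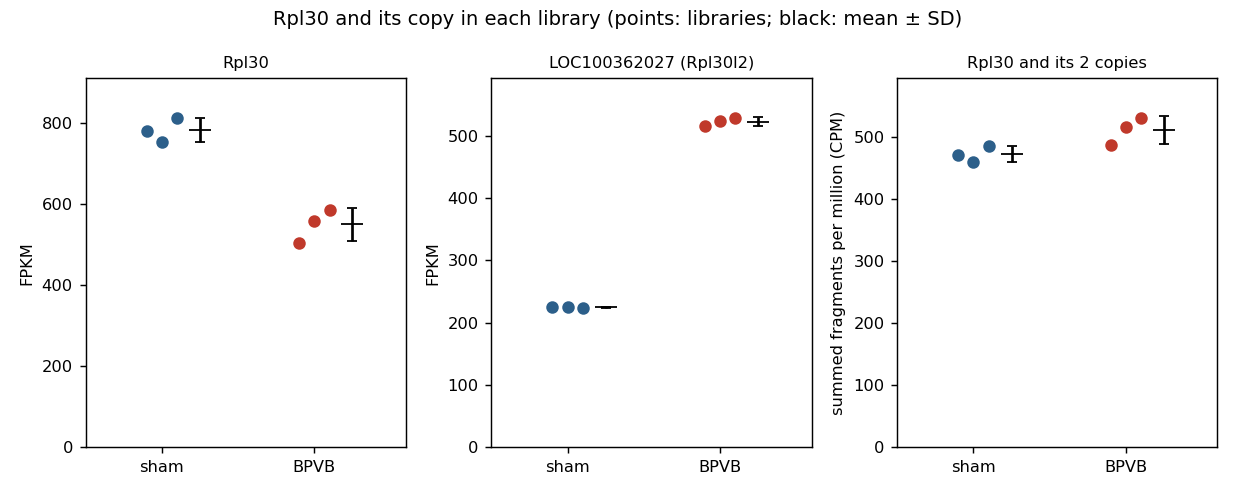
FPKM of Rpl30 (left), FPKM of its copy LOC100362027 (middle), and the summed CPM of Rpl30 and its 2 copies (right) in the sham (blue) and BPVB (red) libraries. Points are libraries and black marks the mean ± SD of 3; Rpl30 fell from 781 to 549 FPKM on average, the copy rose from 225 to 523 FPKM, and their sum lay between 460 and 531 CPM in all 6 libraries.

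The same sum was made for every subunit gene, with Rpl37 added, which gave 76 genes. By RefSeq name, 170 copies belonged to 59 of these genes, and for 9 genes more than 10% of the summed fragments lay on copies. With copies added, 58 genes were higher and 0 were lower, against 58 and 1 for the genes on their own. Rpl7a (adjusted p = 0.005 alone and 0.084 with copies) and Rps10 lost a higher call, Rpl8 (0.056 alone and 0.041 with copies) gained one, and Rpl30 went from lower to higher. The log2 fold changes then ran from -0.04 to 0.54, and their SD fell from 0.13 to 0.11. Rps10, with 31.6% of its summed fragments on copies, had a log2 fold change of 0.15 alone (adjusted p = 0.009) and -0.01 ± 0.03 with its 3 copies (adjusted p = 0.77). Rpl35a, with 33.2% on copies, had 0.20 alone and 0.28 ± 0.03 with copies (adjusted p = 0.00029). Rps27 had only 0.207% of its fragments on copies, and its log2 fold change was 0.54 on either count.

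The 2 members with the largest absolute log2 fold changes were paralogs, Rpl39l and Rpl3l, and neither passed the threshold on log2(FPKM + 0.5). Rpl22l1, the second gene for the RNA-binding protein Rpl22, was at 173, 180 and 183 FPKM across BPVB libraries and 144, 149 and 146 FPKM across sham libraries. Its groups were separate and it rose by 0.29 ± 0.03 on the log2 scale (adjusted p = 0.00015). Rpl22 itself rose by 0.18 ± 0.04 (adjusted p = 0.0053). None of the other 6 paralogs passed the threshold in this fit.

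Rpl3l, a form of Rpl3 that is made in heart and skeletal muscle, was low, at 2.08, 1.23 and 2.69 FPKM across BPVB libraries and 2.33, 4.02 and 4.40 FPKM across sham libraries. Its groups overlapped, with a log2 fold change of -0.71 ± 0.26 (adjusted p = 0.068). The change passed the threshold without BPVB replicate 3 (-0.91, adjusted p = 0.04) and without sham replicate 1 (-0.96, adjusted p = 0.022), and with all libraries under quantile scaling (-0.80, adjusted p = 0.046) and limma-voom on recovered fragments (-0.83, adjusted p = 0.032). Of 10 atrial muscle markers 7 were lower and 2 higher in the BPVB group, and their part in this value was not tested. Rpl39l, known from testis, was at 2.80, 0.906 and 2.85 FPKM against 1.49, 1.01 and 0.661 FPKM, a log2 fold change of 0.72 ± 0.34 (adjusted p = 0.14). BPVB replicate 2 stood below the other BPVB libraries, and without it the log2 fold change was 1.13 (adjusted p = 0.0073), the only case in which a member passed both DEG thresholds.

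Rps27l, a p53 target that resembles Rps27, was at 62.4, 70.0 and 72.2 FPKM across BPVB libraries and 64.8, 63.5 and 66.1 FPKM across sham libraries. The groups overlapped, with a log2 fold change of 0.07 ± 0.05 (adjusted p = 0.35), and without BPVB replicate 1 the value was 0.13 (adjusted p = 0.036). Rpl36al and Rpl10l had negative log2 fold changes of -0.10 and -0.19, and Rpl7l1 a positive one of 0.10, none past the threshold (adjusted p = 0.25, 0.27 and 0.16).

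The ratio of each paralog to its parent gene was then compared, 7 ratios in all. The Rps27l to Rps27 ratio on the log2 scale was -4.03, -4.07 and -4.13 across BPVB libraries and -3.54, -3.67 and -3.61 across sham libraries. The groups were separate, and the ratio was lower by a difference of -0.46 in the BPVB group. The ratio of Rpl3l to Rpl3 differed by -1.07, that of Rpl36al to Rpl36a by -0.22, that of Rpl22l1 to Rpl22 by 0.11 and that of Rpl7l1 to Rpl7 by 0.09. In each of these 5 pairs the groups did not overlap, with p = 0.1, the smallest possible, and 0.14 after adjustment over the 7 pairs (exact permutation tests, two-sided). The groups overlapped for Rpl10l to Rpl10 and for Rpl39l to Rpl39 (both p = 0.3, exact permutation tests). This test cannot give a p under 0.05 with 3 libraries a group. The Rpl7l1 to Rpl7 groups were barely separate, with -5.01933 and -5.01946 in the nearest libraries, and without BPVB replicate 1 the difference was 0.029. The nearest libraries were also close for Rpl22l1 to Rpl22, at -1.109 and -1.115, and for Rpl3l to Rpl3, at -8.09 and -8.02 with SDs of 0.545 and 0.463.

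**Figure D4:**
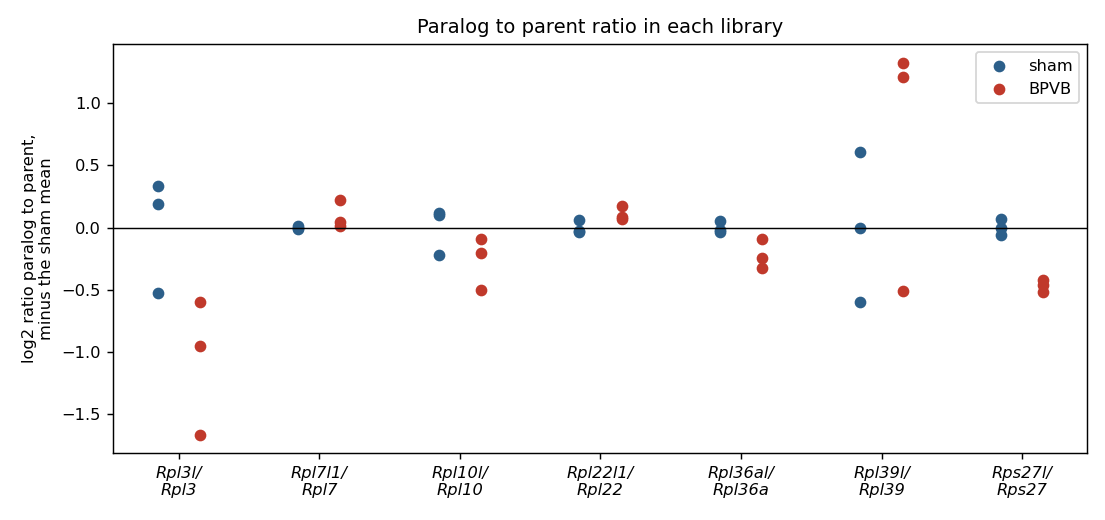
Log2 ratio of each paralog to its parent gene, minus the mean of the sham libraries. Points are single libraries (blue sham, red BPVB); the BPVB points of Rps27l/Rps27 lie together, at a mean of 0.46 below sham, whereas those of the low-level pairs Rpl3l/Rpl3 and Rpl39l/Rpl39 are widely scattered.

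The 17 copies and other members were mostly low. Of the 14 tested, 1 was higher and 2 were lower, and the median was -0.10 on the log2 scale. These shares were 7.14% and 14.3%, against 17.2% and 14.3% of all genes. Rps15al4 was at 30.8, 33.0 and 28.4 FPKM across BPVB libraries and 25.5, 22.5 and 25.2 FPKM across sham libraries, a log2 fold change of 0.33 ± 0.07 (adjusted p = 0.0067, or 0.06 with limma-voom on recovered fragments). Rpl27-l1 was at 11.6, 12.9 and 11.6 FPKM against 15.4, 20.01 and 13.4 FPKM, a log2 fold change of -0.40 ± 0.13 (adjusted p = 0.04). Rps10l1 was at 53.7, 59.1 and 69.2 FPKM against 67.9, 79.6 and 73.3 FPKM, a log2 fold change of -0.28 ± 0.09 (adjusted p = 0.041). The groups of Rps10l1 overlapped. Both lower calls were lost on leaving out any of several single libraries. The Rpl27-l1 call was lost without BPVB replicate 1, 2 or 3 or sham replicate 1 or 2 (adjusted p from 0.051 to 0.11), its log2 fold change being -0.25 without sham replicate 2, and the Rps10l1 call without BPVB replicate 1 or 2 or sham replicate 2 or 3 (adjusted p from 0.093 to 0.13). With all libraries the Rpl27-l1 call was also lost with TPM, without a filter and with limma-voom (adjusted p = 0.053, 0.074 and 0.11), and the Rps10l1 call with TPM, without a filter and with quantile scaling (adjusted p = 0.054, 0.077 and 0.057). Rps12l3 and Rpl31l2, both under 4 FPKM in every library, had log2 fold changes of 0.61 (adjusted p = 0.072) and -0.44 (adjusted p = 0.12). Without sham replicate 1, Rps12l3 had a log2 fold change of 0.86 (adjusted p = 0.011).

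Outside the symbol rule, RefSeq names a further 157 genes in the table as copies of subunit genes. Of the 118 tested, 16 were higher (13.6%, against 17.2% of all genes) and 7 lower (5.93%, against 14.3%). Their median log2 fold change was 0.15, against 0.02 for all genes. The log2 fold change was positive in 83 of the 118, beside 8175 of all 15150 genes. The DEG thresholds were passed by 4 of the 118 copies, a share near the 3.27% of all genes that passed them. Of these 4 DEGs 3 were higher, including the Rpl30 copy described above. LOC108351058, named Rpl35a-ps7, was lower, with a log2 fold change of -1.23 ± 0.27 (adjusted p = 0.0076). Another of the 4 was RGD1562420, named Rpl19l1, at 31.7, 34.2 and 35.1 FPKM across BPVB libraries and 11.3, 12.4 and 13.5 FPKM across sham libraries, a log2 fold change of 1.41 ± 0.07 (adjusted p = 1.5e-06). These copies were chosen after values had been seen.

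Many messenger RNAs of the translation machinery begin with a C followed by a run of C and T, the 5' terminal oligopyrimidine (TOP) sequence, through which mTOR and the protein Larp1 control their translation. Annotated start sites were taken from RefSeq (GRCr8). The start was annotated and not measured in these tissues, and a 5-base match to C and then 4 bases of C or T is a description of letters only. Of the 99 members, 77 had a promoter entry, and 59 subunit genes had a single annotated start. A C followed by 4 C or T stood exactly at the start in 22 of these 59 (37.3%), in none of 17 other members, and in 2.52% of the 24130 other genes. Within 10 bases on either side of the start, such a run was found in 74.6% of the subunit genes, 41.2% of the 17 other members and 28.4% of other genes. The letters TTTCC, read on the sense strand within 20 bases of the start, were found in 42.4%, 17.6% and 5.90% of these sets. CCGGAAG, read on both strands over the 250 bases before and the 50 bases from the start, was found in 32.2%, 11.8% and 9.43%, and AAGATGGC, read in the same way, in 8.47%, 17.6% and 3.56%. TATAAA, read on the sense strand over the same bases, was found in 8.47%, 11.8% and 9.25%. The windows overlap, and one stretch can hold more than 1 of these motifs.

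Start windows are shown for 4 parent and paralog pairs, picked after the values were seen as pairs whose ratios are described above or drawn in the plot of ratios, and for Rplp1 and Rpl41 as a strongly rising and the most abundant member. Each gives 15 bases before the start and 15 from it, 5' to 3' on the gene's strand, with capitals marking the unbroken run of C and T that begins at the start.
Rps27 (chr2:177964592-177964621, minus strand): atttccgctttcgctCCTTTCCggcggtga
Rps27l (chr8:76443643-76443672, plus strand): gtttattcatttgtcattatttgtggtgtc
Rpl22 (chr5:168117946-168117975, plus strand): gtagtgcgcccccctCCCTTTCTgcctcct
Rpl22l1 (chr2:113683181-113683210, plus strand): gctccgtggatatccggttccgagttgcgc
Rpl39 (chrX:121195882-121195911, minus strand): tcttctaatcgcgttCTTCCggcctgtcct
Rpl39l (chr10:5966607-5966636, minus strand): actgccaggccgtccCgctatcctggtgtg
Rpl3 (chr7:113507976-113508005, minus strand): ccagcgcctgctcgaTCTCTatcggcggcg
Rpl3l (chr10:14258431-14258460, plus strand): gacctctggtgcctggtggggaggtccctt
Rplp1 (chr8:71290858-71290887, minus strand): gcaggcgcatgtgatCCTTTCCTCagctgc
Rpl41 (chr7:1563483-1563512, minus strand): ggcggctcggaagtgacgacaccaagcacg

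Rps27, Rpl22, Rpl39 and Rplp1 carried a run that began with C at the annotated start, and the run of Rpl3 began with T. None of the 4 paralogs shown had C and 4 more C or T at the start, and Rpl39l began with a single C. The fold changes of the subunit genes were also set beside the run at the start. The 22 genes with it had a median log2 fold change of 0.16 with 16 called higher, and the 37 without it had a median of 0.16 with 30 called higher. Rpl41, with an A at its annotated start, was higher in the BPVB group, as described above.

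Other genes of the translation machinery were read against the members. Of 2 ribosomal proteins with other symbols, Rack1, a signalling scaffold on the 40S subunit, rose by 0.18 ± 0.02 on the log2 scale (adjusted p = 0.00032). Fau, which encodes the small subunit protein eS30 fused to a ubiquitin-like protein, rose by 0.11 ± 0.03 (adjusted p = 0.027). Leaving out BPVB replicate 2, BPVB replicate 3, sham replicate 1 or sham replicate 3 each ended the call of Fau. Elongation factors and other genes known for TOP messenger RNAs were mostly higher, 12 of 15 (80%, against 17.2% of all genes). None was lower, and their median log2 fold change was 0.26. Eef1a1, which brings aminoacyl-tRNA to the ribosome, went from 1625 ± 34.1 to 2149 ± 83.4 FPKM (SD, n = 3 per group), a log2 fold change of 0.40 ± 0.03 (adjusted p = 1.7e-05). Pabpc1, the poly(A) tail binding protein, and Npm1, a nucleolar chaperone, each had a log2 fold change of 0.46 ± 0.03 (adjusted p = 5.8e-06 and 4.9e-06), and Eif4b, a helicase cofactor, had 0.47 ± 0.03 (adjusted p = 1.1e-05).

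Genes that start translation and genes that assemble ribosomes were also counted. Of 30 initiation factors, 8 were higher and 2 lower, and the median was 0.03 on the log2 scale. These shares were 26.7% and 6.67%, against 17.2% and 14.3% of all genes. Eif2s3, a subunit of the factor that carries the initiator tRNA, rose by 0.36 ± 0.03 (adjusted p = 7.3e-05), and Eif2b1, a subunit of its exchange factor, had a log2 fold change of -0.19 ± 0.06 (adjusted p = 0.031). Of 62 ribosome biogenesis genes, 11 were higher and 3 lower, with a median of 0.11, and the share called higher was 17.7% against 17.2% of all genes. Rrp12 rose by 0.88 ± 0.10 (adjusted p = 0.00025) and Gtpbp4 by 0.59 ± 0.09 (adjusted p = 0.0013), and both act in subunit assembly. Nhp2, a protein of the H/ACA particles that guide pseudouridine formation in ribosomal RNA, had a log2 fold change of -0.38 ± 0.07 (adjusted p = 0.0046).

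Mitochondrial ribosomal proteins, which build the separate ribosome inside mitochondria, went the other way. Of 74 tested, 49 were lower (66.2%, against 14.3% of all genes) and 1 was higher, and the median was -0.26 on the log2 scale. Mrps16 went from 102 ± 2.33 to 69.8 ± 1.52 FPKM (SD, n = 3 per group), a log2 fold change of -0.55 ± 0.03 (adjusted p = 4.2e-06). Mrps28 had the largest fall, -0.82 ± 0.09 (adjusted p = 0.00017), and Mrps18b was the gene called higher, at 0.33 ± 0.06 (adjusted p = 0.002). The difference between the median log2 FPKM of the cytosolic members and of the mitochondrial ones was 4.20, 4.40 and 4.35 across BPVB libraries and 3.99, 4.06 and 4.05 across sham libraries. The groups did not overlap, and the difference was larger by 0.29 in the BPVB group (two-sided exact permutation test, p = 0.1, the lowest possible).

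**Figure D5:**
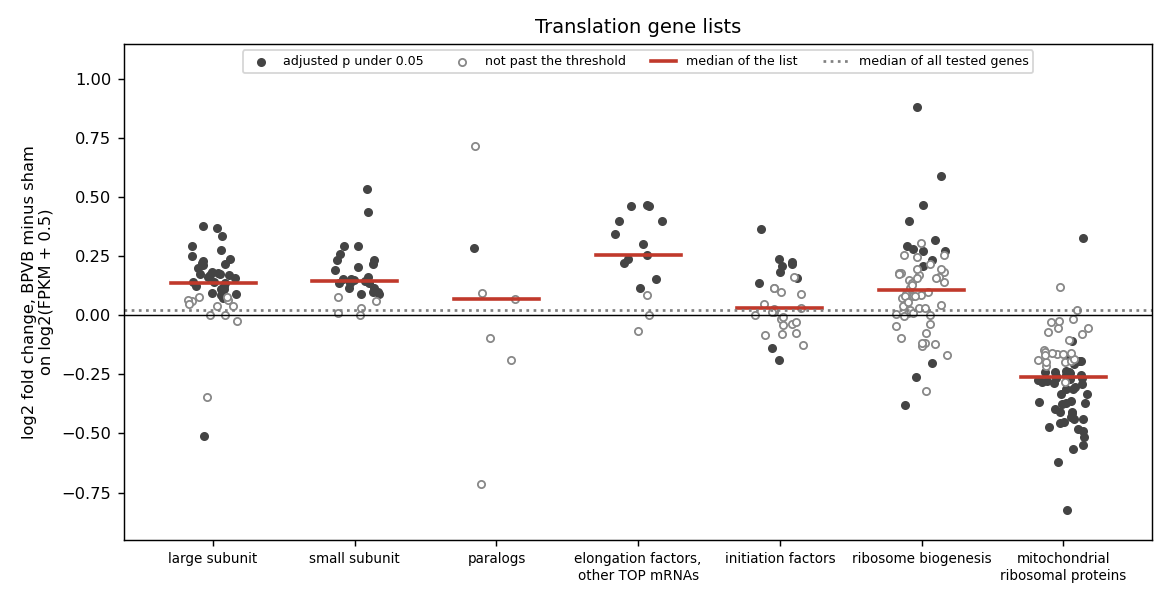
Log2 fold change (BPVB minus sham, on log2(FPKM + 0.5)) of single genes in the large and small subunit lists, the paralogs, and 4 other lists of translation genes. Filled points passed an adjusted p of 0.05, red lines are list medians and the dotted line is the median of all tested genes; medians were 0.14 and 0.15 for the subunits, 0.26 for elongation factors and other TOP mRNAs, and -0.26 for mitochondrial ribosomal proteins. The large subunit list is drawn by deposited symbol, so it holds the copy deposited as Rpl37.

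Marker genes of cell types were read beside these results. For comparison, 17.2% of all tested genes were called higher and 14.3% lower. Smooth muscle (Acta2 at 1478 and 1680 FPKM in the BPVB and sham groups), endothelial, fibroblast and atrial muscle markers were all detected, as the labelled tissue would hold. In bulk tissue, fewer cells of a type and less RNA per cell cannot be told apart. All 10 alveolar epithelium markers were higher in the BPVB group, with a summed FPKM of 598 to 649 against 63.6 to 65.4, and Sftpc, the surfactant protein C gene, had a log2 fold change of 3.40 ± 0.05 (adjusted p = 8.6e-10). Of 9 macrophage markers 8 were higher, with a summed FPKM of 714 to 732 against 253 to 260. Of 10 atrial muscle markers 7 were lower and 2 higher, with a summed FPKM of 16707 to 17157 against 22575 to 23007. Of 10 endothelial markers 6 were lower and 0 higher (1163 to 1177 against 1308 to 1323), and of 10 fibroblast markers 7 were higher and 2 lower (6945 to 6981 against 6065 to 6102). Of 10 smooth muscle markers 3 were higher and 5 lower (5530 to 5579 against 5906 to 5939), and none of 9 lymphocyte markers was called (3.81 to 7.13 against 4.28 to 7.04). No marker found in the table was at 0 in all libraries. The part of these lists in the values of the ribosomal protein genes was not tested.

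Ribosomal protein messenger RNAs are short, and length was therefore compared. Genes other than the members were counted here only when they reached a minimum of fragments in at least 1 library. Among them, those under 700 bases had a median log2 fold change of -0.07, and those of 4000 bases or more had 0.04. Of those under 700 bases, 21.6% were called higher, against 17.2% of all tested genes, to which no such minimum was applied. The 53 members under 700 bases had a median of 0.14. Within the 75 subunit genes, the 38 shorter ones had a median of 0.15 and the 37 longer ones 0.14.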

How the data were processed

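Bulk RNA-seq was available for 3 BPVB and 3 sham libraries of rat PVs. Reads were mapped with HISAT2 2.0.5 and counted with featureCounts 1.5.0-p3 per the submitters' processing notes, which also list StringTie 1.3.3b and DESeq2 1.20.0, whereas the study's methods name HISAT and HTSeq-count. Genome build, strand setting and the treatment of reads with several matches are not given in the sources used here. Without strand, reads of overlapping antisense genes cannot be told apart. The authors deposited 1 FPKM value per gene and library.

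Fragments were recovered as whole numbers for 100% of the 17833 genes (relative tolerance 1e-08). Groups were compared with limma 3.58.1 in R 4.3.3 (lmFit, eBayes with trend) on log2(FPKM + 0.5), for the 15150 genes whose mean FPKM reached 0.1, two-sided, with Benjamini-Hochberg adjustment. Fold changes on this scale understate those of low genes. The procedure was checked on simulated data. Exact permutation tests were used for single values, and with 3 libraries a group their p cannot be below 0.1. The other steps ran in Python 3.11.15 with numpy 2.4.6, pandas 2.3.3 and matplotlib 3.10.9. Copies were assigned to subunit genes by RefSeq symbol.

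The members and lists were chosen with earlier results of these data known. Members named were the 10 largest absolute log2 fold changes, the 10 highest mean FPKM, the P stalk genes, Rpsa, Rpl3, Rpl5, Rpl11, Rpl13a, Rps6, Rps19, Rps27a, Rpl22, Rps27, all paralogs, and called members on none of the lists of subunit genes and paralogs. From other lists, up to 4 called genes of largest absolute change per direction qualified. Others named (Rps10, Rpl7a, Rpl8, Rpl39 and the copies) were chosen after their values were seen. Alternatives were pseudocounts of 1 and 0.1, no filter or a mean FPKM of at least 1, TPM, median-of-ratios and quantile scaling, robust eBayes, the replicate number as a block, and leaving out each library. Adding the fragments of copies, limma-voom on recovered fragments and the difference from mitochondrial ribosomal proteins were chosen after seeing the data. One gene of the lists is not reported here.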

Additional observations from a re-analysis of the deposited data

How the results depend on the processing

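Members called higher numbered 50 (median-of-ratios scaling) to 67 (TPM and quantile scaling), and 51 to 62 with 1 library left out. The share of all genes called higher was 15.6% with median-of-ratios scaling, 19.8% with TPM and 15.5% with quantile scaling. It was 14.3% to 14.7% with 1 library left out. The members' median log2 fold change was 0.16 with TPM, 0.11 with median-of-ratios and 0.16 with quantile scaling. The log2 ratio of their summed FPKM was 0.17, 0.11 and 0.18. Relative to the median of all genes the members' median stayed between 0.10 and 0.17. Members called lower numbered 1 with TPM, 1 without a filter, 0 with copies added, 6 with the replicate block, and 1 to 3 with 1 library left out. The matching shares of all genes were 12.4%, 11.5%, 14.5%, 13.7%, and 11.6% to 12.6%. Members past the DEG thresholds numbered 0 to 1 with 1 library left out.

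With TPM the medians were 0.29 for elongation factors and other TOP mRNAs, 0.0612 for initiation factors (0 lower), -0.23 for mitochondrial ribosomal proteins, 0.18 for ribosomal proteins with other symbols and 0.14 for ribosome biogenesis (1 lower). With median-of-ratios scaling they were 0.23, 0.00347, -0.29 and, for biogenesis, 0.0823, and 1 ribosomal protein with another symbol was higher. With quantile scaling the medians were 0.30 for elongation factors, 0.0557 for initiation factors and 0.0898 for biogenesis, 1 ribosomal protein with another symbol was higher, the large minus small subunit difference was -0.0573, the Rpl7l1/Rpl7 balance -0.0355, the Rps27l/Rps27 balance -0.54 and the log2 fold change of Rpl36al 0.00096. Without a filter 1 ribosomal protein with another symbol was higher. Rpl30 stood at 0.11 with copies added, and Rpl7 and Rps7 at -0.0237 and -0.0255 with median-of-ratios scaling and at 0.14 and 0.08 with quantile scaling, both then called higher.

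With 1 library left out, initiation factors had 1 to 2 lower and a median of 0.0182 to 0.0568, biogenesis genes 1 to 2 lower and a median of 0.0927 to 0.130, ribosomal proteins with other symbols 1 to 2 higher, the subunit difference was -0.0127 to 0.0115, the Rpl7l1/Rpl7 balance 0.029 to 0.136, Rpl7 -0.0181 to 0.0274 and Rps7 -0.0123 to 0.0165. The cause of these changes was not tested. With the replicate block 61 members were higher and 6 lower, against 16.3% and 13.7% of all genes, and 1 initiation factor was lower. Rps12l3 and Rpl31l2 passed the threshold in this fit (limma with the block, adjusted p = 0.028 for both). Deviations of same-numbered libraries correlated at 0.031, 0.025 and 0.019, so the numbers were not taken as pairs; each library correlated best with its own number, a hint from the data and not from the design. Of the 62 members and translation genes that the rule for named genes gave, 36 kept their side of the threshold and direction under every alternative. Depth was higher in every BPVB library than in every sham library, and its part in the differences was not tested. Paralogs and copies of a few FPKM were imprecise.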
